A study of Oryza sativa Japonica Group with 59 samples.

Results

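Polycomb repressive complex 2 (PRC2) is a chromatin complex that places methyl groups on lysine 27 of histone H3, a mark associated with stably repressed genes. In plants it is built from an Enhancer of zeste-type catalytic subunit, a WD40-repeat subunit of the FIE type, a zinc-finger subunit of the EMF2 type and a small histone-binding subunit, and several of these exist as paralogues that are thought to form alternative complexes. In rice, *FIE1* and *EMF2a* are known as imprinted genes of the endosperm, where the maternal copy is expressed and DNA methylation takes part in silencing. CMT3a and CMT3b are chromomethylases, enzymes that methylate cytosine in the CHG context.

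The 6 genes described here are the catalytic subunit genes *CLF* (LOC_Os06g16390) and *iEZ1* (LOC_Os03g19480), the FIE-type genes *FIE1* (LOC_Os08g04290) and *FIE2* (LOC_Os08g04270), and the EMF2-type genes *EMF2a* (LOC_Os04g08034) and *EMF2b* (LOC_Os09g13630). They were picked by identifier, with earlier results of these data known, from 55986 features counted in every RNA-seq library. The study isolated reproductive cells of the rice variety Zhonghua11 (ZH11) by micromanipulation, and 27 RNA-seq libraries form 10 groups. The wild type (WT) gave meiocyte, unicellular microspore, egg and zygote (3 libraries each) and sperm (2 files). The *cmt3b* mutant gave meiocyte, sperm and zygote (3 libraries each) and egg (2 libraries), and the *cmt3a* mutant, which is infertile, gave egg only (2 libraries). Zygotes were collected 6 to 8 hours after fertilization. WT plants were regenerated from tissue culture, and mutants were CRISPR/Cas9 lines freed of the transgene, 2 independent lines per gene, with the line behind each library not given in the sources used here. Each library pooled many cells, so a smaller share of cells expressing a gene and less RNA per cell cannot be told apart.

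Total counts were between 9240046 and 25610860 per library, with a median of 16151914. Counts of both WT sperm files agreed more closely than sampling noise allows (chi-square over degrees of freedom 0.24, against 1.37 to 6.73 in the 23 other replicate pairs), so they were counted as 1 sample. WT sperm therefore has no replicate error, and comparisons with it have no test. The targeted genes were lower in the mutants, with *CMT3b* at 5.85 FPKM in WT and 1.20 FPKM in *cmt3b* meiocyte, 0.984 and 0.00749 FPKM in egg, 1.61 and 0.691 FPKM in zygote, and 4.82 and 0.722 FPKM in sperm. *CMT3a* was at 8.84 FPKM in WT egg and 3.25 FPKM in *cmt3a* egg. The chromomethylase gene that was not targeted moved too. *CMT3b* was at 0.106 FPKM in *cmt3a* egg, called lower than in WT egg (edgeR log2 difference −2.93, adjusted p = 1.34e-08), where *CMT3a* itself was at −1.11 (adjusted p = 6.87e-08). *CMT3a* was called lower in *cmt3b* meiocyte (23.4 FPKM in WT and 8.60 FPKM in the mutant, adjusted p = 2.24e-14 in edgeR) and higher in *cmt3b* egg (15.1 FPKM, adjusted p = 1.27e-10). FPKM is the count scaled to the length of the gene and the total count of the library, so it can be compared between genes. Sperm markers summed to 1710 to 1720 FPKM in WT sperm and 1090 to 1140 FPKM in *cmt3b* sperm, and to at most 6.54 FPKM in all other groups. Levels below are deposited FPKM, given as mean ± SD. Log2 fold changes come from counts with TMM normalization and the quasi-likelihood test of edgeR, with Benjamini-Hochberg adjusted p-values over all genes tested. Genes were called if they changed over 2-fold at an adjusted p below 0.01. Counts of genes at an unadjusted p under 0.05 are given without the share of all genes at that looser limit. They cannot be read against the share of all genes called. The libraries of a group are not stated to come from separate plants, so p-values measure the spread between these libraries.

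Of the 6 genes, 5 were expressed in all or nearly all groups and *FIE1* in none. The clearest differences concerned the catalytic pair. *iEZ1* exceeded *CLF* in WT microspore, *cmt3b* sperm and *cmt3a* egg, where it made up about 4 in 5 of their summed level, and was at 0 counts in WT sperm, where *CLF* was at its highest. *iEZ1* was also the only PRC2 gene called among the tested comparisons of a mutant with WT, rising 3.22-fold in *cmt3a* egg, 1 of 5 genes in a comparison where 38.1% of all genes were called. By FPKM, *EMF2b* was highest in WT egg and *EMF2a* in WT zygote, and both were lowest in WT sperm.

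**Figure D1:**
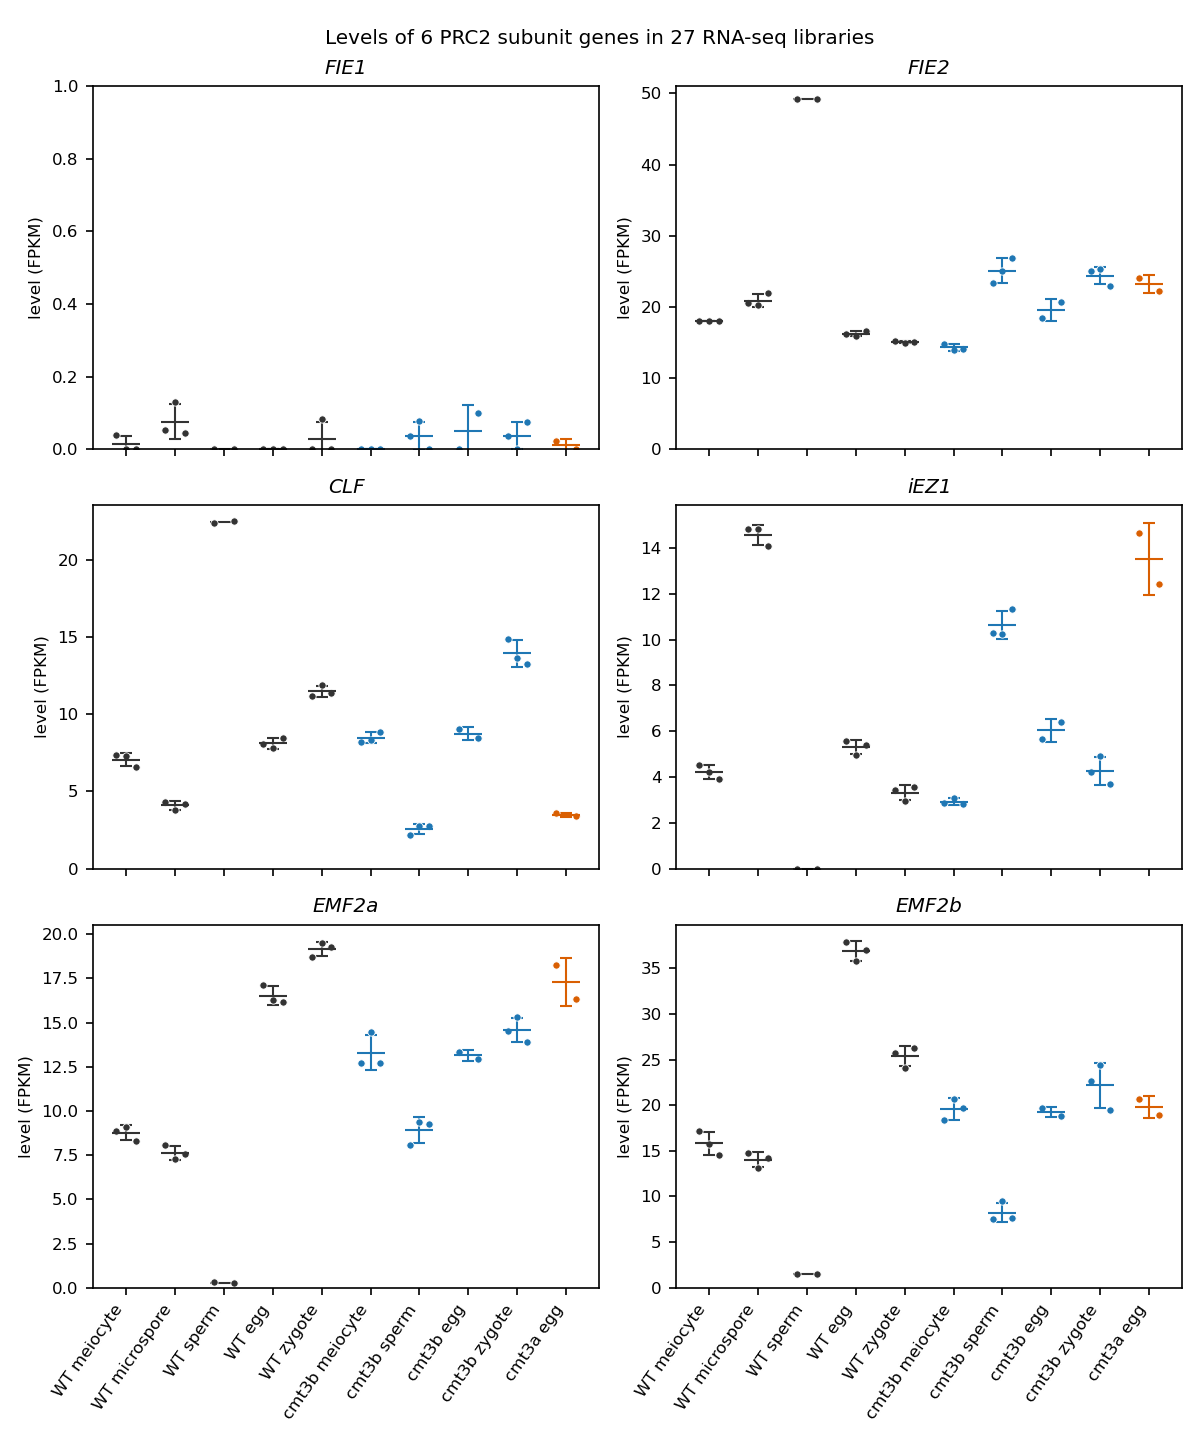
Level of each PRC2 subunit gene in FPKM (vertical axis, linear, one scale per gene) in the 10 groups. Points are libraries, long dashes are group means and bars are SDs, with no SD for WT sperm, whose 2 files count as 1 sample. *FIE1* stays under 0.2 FPKM throughout, and WT sperm holds the highest *FIE2* and *CLF* levels and the lowest *iEZ1*, *EMF2a* and *EMF2b* levels.

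*FIE1*, the imprinted FIE-type gene, had 0 counts in 16 libraries and 1 to 3 counts in the other 11, 17 counts in all. A level of 3 counts, the limit that a count of 0 allows, corresponded to 0.067 to 0.186 FPKM depending on the library. Summed over libraries, all WT samples gave 8 counts, or 0.0196 FPKM (exact Poisson 95% interval 0.00845 to 0.0386), and all *cmt3* mutant samples gave 9 counts, or 0.0244 FPKM (0.0112 to 0.0464). These intervals cover counting error only, and they overlap over most of their width. The pools are not matched for cell type, since WT microspore, which has no mutant counterpart here, gave 5 of the 8 WT counts. The WT cells with a mutant counterpart gave 1 count in meiocyte, 0 in sperm, 0 in egg and 2 in zygote.

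By group, *FIE1* had 1 count in *cmt3a* egg (upper limit 0.0705 FPKM), 2 in *cmt3b* egg (0.192 FPKM), 3 in *cmt3b* zygote (0.125 FPKM), 3 in *cmt3b* sperm (0.102 FPKM) and 0 in *cmt3b* meiocyte (0.0386 FPKM). WT egg had 0 counts (upper limit 0.0322 FPKM) and WT zygote 2 (0.0799 FPKM). WT microspore, with 5 counts and 0.0777 FPKM (0.0252 to 0.181), held the most. Ectopic expression of *FIE1* in the *cmt3* mutant cells was thus not detectable at this depth, and the gene was too low to be tested in any comparison. The 5 markers of endosperm, the tissue in which *FIE1* is known to be expressed, summed to 0.141 to 0.543 FPKM in WT egg and 0.591 to 0.96 FPKM in *cmt3a* egg, and to 0 FPKM in WT sperm and 0.619 to 1.3 FPKM in *cmt3b* sperm. One of them, LOC_Os01g29840, had 20 to 24 counts in *cmt3a* egg and 0 in every WT egg library (called higher, adjusted p = 2.94e-07 in edgeR), and 21 to 29 counts in *cmt3b* sperm and 0 in both WT sperm files. The sums were 0.157 to 0.24 FPKM in *cmt3b* egg, 0.148 to 0.54 FPKM in WT zygote and 0.477 to 0.99 FPKM in *cmt3b* zygote. They were highest in WT microspore, at 4.21 to 4.53 FPKM. In meiocyte the mutant was lower, at 0.851 to 1.16 FPKM beside 1.69 to 2.01 FPKM in WT. The part of endosperm RNA in the PRC2 values was not tested.

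The loci on either side of *FIE1* in identifier order were measurable. LOC_Os08g04280, which lies between *FIE2* and *FIE1*, had group means of 11.5 to 85.7 FPKM and was not called in any mutant compared with WT. LOC_Os08g04300 was at 0.925 FPKM in WT egg (libraries 0.825 to 0.978) and 2.57 FPKM in *cmt3a* egg (2.54 to 2.61), a called rise of 1.82 on the log2 scale (edgeR, SE 0.15, adjusted p = 5.41e-09). Its neighbour *FIE1* had 0 and 1 counts in these groups.

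*FIE2*, the other FIE-type gene, took over 99% of the summed FIE level wherever that could be computed, since the highest *FIE1* share in a library was 0.643%. It had the narrowest range of the 5 expressed genes, with a 3.44-fold span between the highest and the lowest group mean, which was 5.29-fold with TMM library sizes and still the narrowest. WT sperm stood alone at the top, with 49.2 and 49.3 FPKM in its 2 files. It was followed by *cmt3b* sperm (25.1 ± 1.71), *cmt3b* zygote (24.4 ± 1.25) and *cmt3a* egg (23.2 ± 1.28), whose libraries overlapped with the neighbour in this order. WT microspore (20.9 ± 0.931) and *cmt3b* egg (19.6 ± 1.57) overlapped too. WT meiocyte (18.0 ± 0.0402), WT egg (16.2 ± 0.375), WT zygote (15.1 ± 0.110) and *cmt3b* meiocyte (14.3 ± 0.477) did not overlap with their neighbours. The order and the overlaps are by FPKM and depend on the scaling. With TMM library sizes 6 groups had another rank, and WT egg was lowest in place of *cmt3b* meiocyte (15.9 FPKM). The WT egg libraries, at 12.5 to 13.3 FPKM, then overlapped with WT zygote (mean 13.1 FPKM).

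In egg, *FIE2* was at 16.2, 15.8 and 16.6 FPKM in WT, at 18.4 and 20.7 FPKM in *cmt3b* and at 24.1 and 22.3 FPKM in *cmt3a*. The 3 genotypes did not overlap. In zygote, the values were 15.2, 15.0 and 15.0 FPKM in WT and 25.0, 25.3 and 23.0 FPKM in *cmt3b*. *FIE2* was thus higher in all mutant egg and zygote libraries than in their WT counterparts. The log2 fold changes were 0.50 (SE 0.06, adjusted p = 2.94e-08) in *cmt3b* egg, 0.86 (SE 0.05, adjusted p = 1.87e-10) in *cmt3a* egg and 0.72 (SE 0.06, adjusted p = 2.86e-11) in *cmt3b* zygote, all by edgeR and all under the fold limit. In *cmt3b* meiocyte it was −0.15 (SE 0.06, adjusted p = 0.0298).

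*CLF* and *iEZ1* encode the subunits that carry out the methylation of histone H3. *CLF* was highest in WT sperm, with 22.4 and 22.5 FPKM in its 2 files, and its group means spanned 8.76-fold. *cmt3b* zygote (13.9 ± 0.858) and WT zygote (11.5 ± 0.373) came next, without overlap. *cmt3b* egg (8.74 ± 0.414), *cmt3b* meiocyte (8.48 ± 0.350) and WT egg (8.12 ± 0.347) overlapped in sequence. Lower still, each apart from the next, were WT meiocyte (7.06 ± 0.425), WT microspore (4.10 ± 0.279), *cmt3a* egg (3.48 ± 0.138) and *cmt3b* sperm (2.57 ± 0.337). This order is by FPKM. With TMM library sizes 4 groups had another rank, and WT meiocyte (6.88 FPKM) lay above WT egg (6.52 FPKM), with overlap.

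*iEZ1* had another order. WT microspore (14.6 ± 0.433) and *cmt3a* egg (13.5 ± 1.57) overlapped at the top, above *cmt3b* sperm (10.6 ± 0.614). *cmt3b* egg (6.03 ± 0.510) and WT egg (5.30 ± 0.313) did not overlap, and *cmt3b* zygote (4.26 ± 0.609) overlapped with WT meiocyte (4.22 ± 0.312). WT zygote (3.32 ± 0.309) overlapped with *cmt3b* meiocyte (2.92 ± 0.151). In WT sperm, *iEZ1* had 0 counts in both files, which allows a level of up to 0.0476 and 0.0501 FPKM.

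Over the 10 group means of log2(FPKM + 1), Pearson's r between *CLF* and *iEZ1* was −0.892 and Spearman's rho −0.733. Without WT sperm these were −0.843 and −0.633 over 9 groups. This is a description across cell types that share a genome and a protocol, and each mutant group shares a cell type with a WT group.

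**Figure D2:**
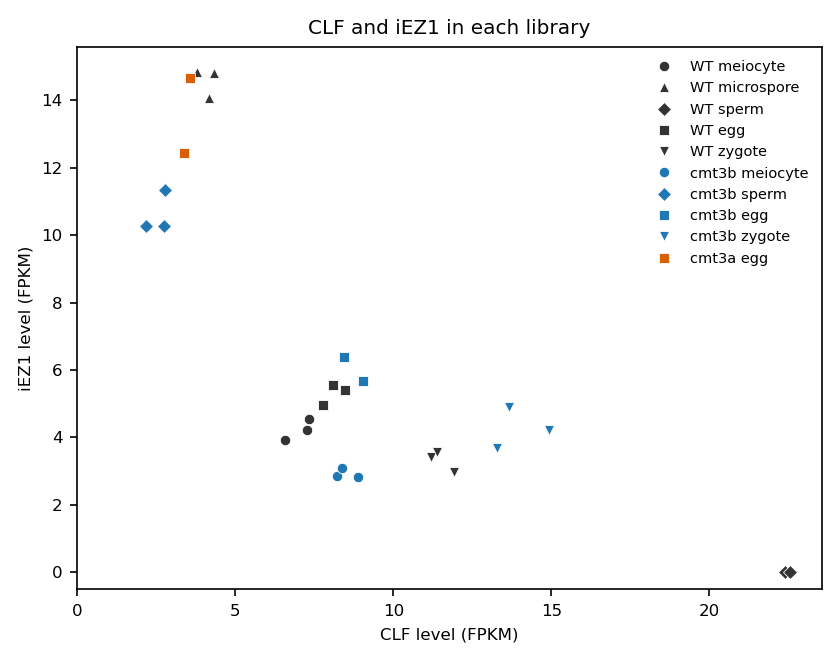
*CLF* level (horizontal axis, FPKM) against *iEZ1* level (vertical axis, FPKM), 1 point per library, WT in black, *cmt3b* in blue and *cmt3a* in orange, with a marker shape per cell type. WT sperm sits at the lower right with *iEZ1* at 0, while WT microspore, *cmt3b* sperm and *cmt3a* egg sit at the upper left.

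The share of *iEZ1* in the summed FPKM of the catalytic pair does not depend on library size. It was 37.4% ± 0.775 in WT meiocyte, 78.1% ± 1.38 in WT microspore and 0% in WT sperm. In WT egg it was 39.5% ± 1.04 and in WT zygote 22.4% ± 2.12. *cmt3b* egg (40.8% ± 3.19) and *cmt3b* zygote (23.4% ± 2.63) overlapped with the WT cells of the same type. The *cmt3b* meiocyte share of 25.6% ± 1.43 lay below WT meiocyte without overlap. *cmt3b* sperm was at 80.6% ± 1.78, and *cmt3a* egg at 79.5% ± 1.25, with no library of WT or *cmt3b* egg above 43.1%. An exact permutation test of 3 libraries against 3 cannot go below 0.10, so no test of shares was made.

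**Figure D3:**
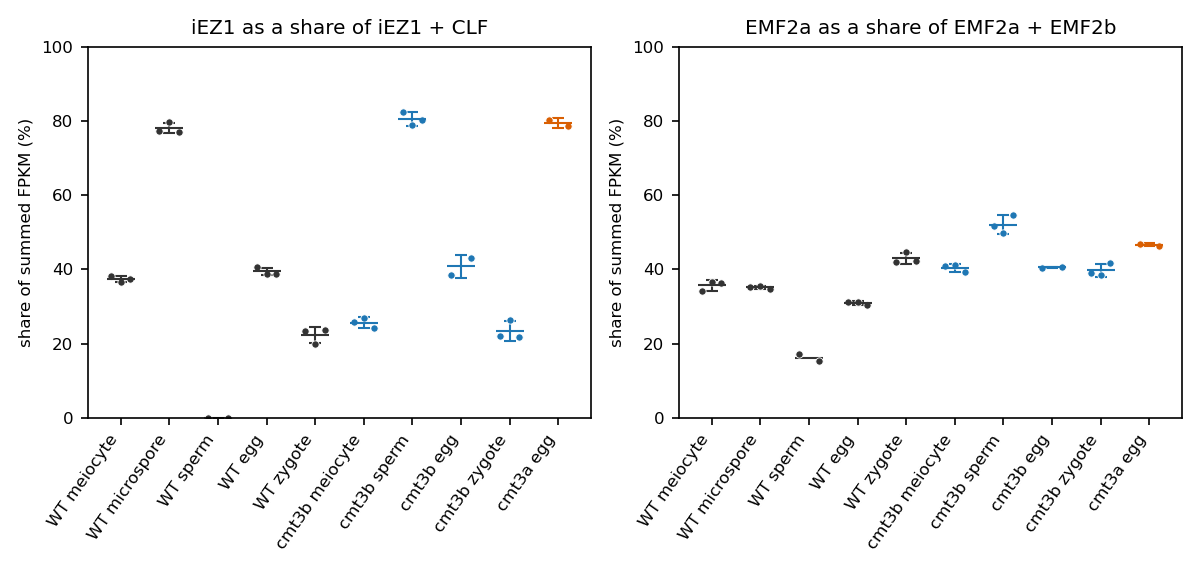
Share of *iEZ1* in *iEZ1* + *CLF* (left) and of *EMF2a* in *EMF2a* + *EMF2b* (right), in percent of the summed FPKM, in the 10 groups. Points are libraries, dashes means and bars SDs. The *iEZ1* share lies near 80% in WT microspore, *cmt3b* sperm and *cmt3a* egg, at 0% in WT sperm and between 20% and 43.1% elsewhere.

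In *cmt3a* egg, *iEZ1* was at 14.7 and 12.4 FPKM, against 5.56, 4.95 and 5.39 FPKM in WT egg. Both mutant libraries were over 2-fold above every WT library. This is a rise of 1.69 on the log2 scale (edgeR, SE 0.07, 95% interval 1.53 to 1.84, adjusted p = 1.1e-12), and *iEZ1* was the 1 gene of 5 tested that was called in this comparison, in which 38.1% of all genes were called. *CLF* was at 3.58 and 3.39 FPKM in *cmt3a* egg and 8.10, 7.79 and 8.48 FPKM in WT egg. The groups did not overlap, and the edgeR log2 difference of −0.88 (SE 0.08, adjusted p = 1.09e-08) was under the fold limit. In FPKM the means of *CLF* differed by more than 2-fold, since FPKM is scaled to the total count and the fold change to TMM library sizes. The 10 most abundant genes took 18.2% to 20.3% of the counts in *cmt3a* egg and 5.36% to 5.71% in WT egg, and the part of this difference in the FPKM values was not tested.

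Against *cmt3b* egg, *cmt3a* egg had a lower *CLF* level and a higher *iEZ1* level, both called, 2 genes of 5 where 37% of all genes were called. The log2 fold changes were −1.19 (SE 0.10, adjusted p = 8.8e-10) for *CLF* and 1.29 (SE 0.09, adjusted p = 8.23e-11) for *iEZ1* by edgeR. *FIE2* (0.37), *EMF2a* (0.53) and *EMF2b* (0.17) differed by less than 2-fold. The nucellus marker LOC_Os02g07430, listed as a marker of surrounding maternal tissue, was at 296 to 314 FPKM in WT egg, 168 to 185 FPKM in *cmt3b* egg and 93.9 to 109 FPKM in *cmt3a* egg. Whether its RNA came from that tissue or from the egg cells, and its part in the differences between egg groups, were not tested.

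In *cmt3b* egg none of the 5 genes was called by edgeR or DESeq2 against WT egg, where 22.7% of all genes were called. At the looser limit of an unadjusted p under 0.05 there were 4 of the 5, with no share of all genes to set beside it. The log2 fold changes of the catalytic pair were small and of the same sign, 0.33 (SE 0.07, adjusted p = 0.000142) for *CLF* and 0.41 (SE 0.09, adjusted p = 0.00011) for *iEZ1* in edgeR. In *cmt3b* zygote, where 16.8% of all genes and 0 of these 5 were called by edgeR and DESeq2, all 5 had an unadjusted p under 0.05. There the values were 0.31 (SE 0.06) for *CLF* and 0.36 (SE 0.11) for *iEZ1*. The nucellus marker LOC_Os02g07430 was at 467 to 469 FPKM in WT zygote and 338 to 349 FPKM in *cmt3b* zygote (edgeR log2 difference −0.41, adjusted p = 4.27e-09), and its part was not tested.

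In meiocyte, *CLF* was at 7.33, 7.28 and 6.57 FPKM in WT and 8.21, 8.37 and 8.88 FPKM in *cmt3b*, and *iEZ1* at 4.54, 4.22 and 3.92 FPKM in WT and 2.84, 3.09 and 2.82 FPKM in *cmt3b*. Neither gene overlapped between the genotypes, with *CLF* higher and *iEZ1* lower in the mutant. The log2 fold changes were 0.46 (SE 0.07, adjusted p = 1.35e-06) and −0.34 (SE 0.10, adjusted p = 0.00269) in edgeR. None of the 5 genes was called by edgeR or DESeq2 in *cmt3b* meiocyte, where 18.6% of all genes were, and all 5 had an unadjusted p under 0.05. Meiocyte markers summed to 294 to 303 FPKM in WT and 208 to 217 FPKM in *cmt3b* meiocyte, and 6 anther wall markers to 955 to 966 and 1040 to 1060 FPKM. Of the meiocyte markers 0 of 7 were called by edgeR, at a median log2 fold change of −0.342. Of the anther wall markers 2 of 6 were called higher, LOC_Os02g02820 (1.68, adjusted p = 1.19e-20 in edgeR) and LOC_Os07g36460 (1.09, adjusted p = 6.67e-18), and the list's median was 0.691, beside −0.0161 over all genes. LOC_Os04g51070, the most abundant in WT, was at 534 FPKM in WT and 357 FPKM in *cmt3b* meiocyte. Their part in these differences was not tested.

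**Figure D4:**
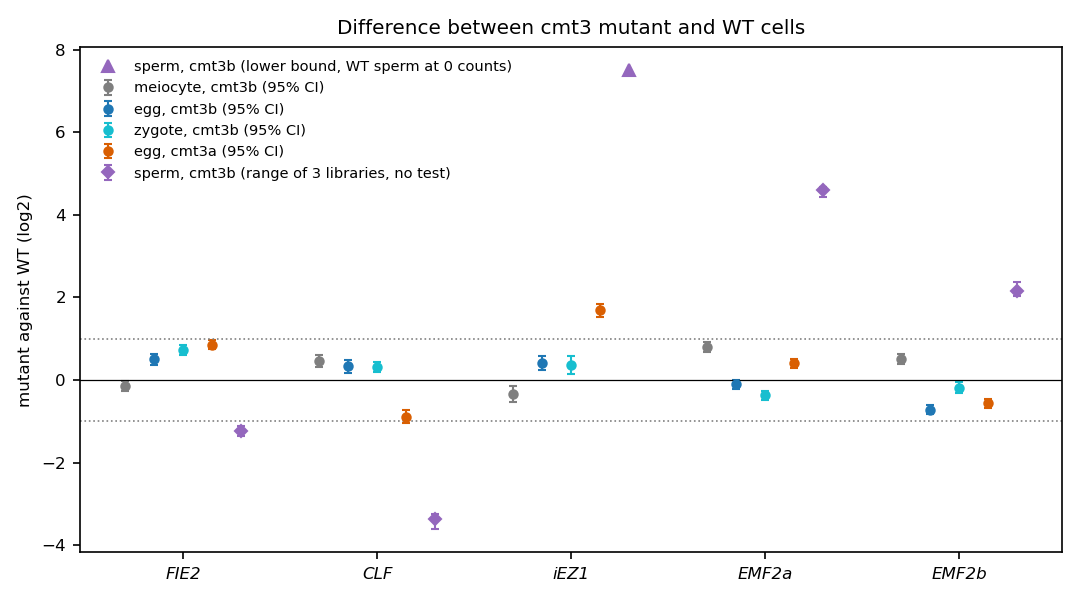
Difference between mutant and WT cells of the same type on the log2 scale (vertical axis) for the 5 expressed PRC2 genes. Circles are edgeR log2 fold changes with 95% confidence intervals, diamonds are mean log2 ratios of *cmt3b* sperm to the single WT sperm sample with the range of 3 libraries and no test, the triangle is a lower bound for *iEZ1*, and dotted lines mark 2-fold. Only *iEZ1* in *cmt3a* egg passes 2-fold among the tested comparisons, while all 5 genes do in sperm. There, 68.1% of all genes lie over 2-fold to one side of WT sperm in every library.

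*EMF2a*, the imprinted EMF2-type gene, was expressed in every group of egg, zygote and meiocyte cells, WT included. By FPKM its highest level was in WT zygote (19.2 ± 0.417), apart from all other groups. With TMM library sizes *cmt3a* egg came first instead, at 17.3 FPKM (16.2 to 18.3) beside 16.6 FPKM (16.1 to 16.9) in WT zygote, with overlap. *cmt3a* egg (17.3 ± 1.36) and WT egg (16.5 ± 0.545) overlapped, as did *cmt3b* zygote (14.6 ± 0.701), *cmt3b* meiocyte (13.3 ± 1.00) and *cmt3b* egg (13.1 ± 0.303) with their neighbours in this order. *cmt3b* sperm (8.92 ± 0.715) overlapped with WT meiocyte (8.76 ± 0.423), above WT microspore (7.64 ± 0.404). WT sperm, with 20 and 17 counts, was at 0.304 and 0.272 FPKM, 66.5-fold below WT zygote, or 41.3-fold with TMM library sizes.

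In meiocyte, *EMF2a* was at 8.86, 9.12 and 8.29 FPKM in WT and at 12.7, 14.5 and 12.7 FPKM in *cmt3b*. All mutant libraries lay above all WT libraries, and of the PRC2 genes it had the largest log2 fold change in this comparison, 0.79 (SE 0.06, 95% interval 0.67 to 0.92, adjusted p = 3.62e-12 in edgeR), a 1.73-fold difference under the fold limit. In egg, the WT values were 17.1, 16.3 and 16.1 FPKM, the *cmt3b* values 13.4 and 12.9 FPKM and the *cmt3a* values 18.3 and 16.4 FPKM. The log2 fold change in *cmt3b* egg was −0.10 (95% interval −0.22 to 0.01, adjusted p = 0.0883 in edgeR), although no FPKM value overlapped. The *cmt3a* value was 0.41 (SE 0.05, adjusted p = 1.75e-06 in edgeR), although FPKM overlapped, again with TMM and total counts scaling the groups differently. In zygote, *EMF2a* was at 18.7, 19.5 and 19.3 FPKM in WT and at 14.5, 15.3 and 13.9 FPKM in *cmt3b*, which edgeR estimated as −0.37 on the log2 scale (SE 0.05, adjusted p = 5.67e-07). *EMF2a* was therefore not called in any mutant meiocyte, egg or zygote against WT. Its next locus in identifier order, LOC_Os04g08060, was called lower in *cmt3b* egg (log2 fold change −2.94, SE 0.60, adjusted p = 6.24e-05 in edgeR) and in *cmt3a* egg (−2.34, SE 0.42, adjusted p = 5.82e-05). LOC_Os04g08060 was low throughout, at 1.08 FPKM in WT egg, 0.115 FPKM in *cmt3b* egg and 0.163 FPKM in *cmt3a* egg. The locus before *EMF2a*, LOC_Os04g08010, was listed at 0 in every library.

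*EMF2b*, by group mean the more abundant EMF2-type gene in all groups but *cmt3b* sperm, was at 37.9, 35.8 and 37.0 FPKM in WT egg, above every other library. In replicate 2 of *cmt3b* sperm *EMF2b* (9.50 FPKM) was slightly above *EMF2a* (9.40 FPKM). WT zygote (25.4 ± 1.12), *cmt3b* zygote (22.2 ± 2.50), *cmt3a* egg (19.8 ± 1.21), *cmt3b* meiocyte (19.6 ± 1.16) and *cmt3b* egg (19.2 ± 0.585) each overlapped with the next. WT meiocyte (15.8 ± 1.28) and WT microspore (14.0 ± 0.818) overlapped as well. *cmt3b* sperm (8.24 ± 1.09) and WT sperm, with 66 and 65 counts and a mean of 1.49 FPKM, came last.

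The *EMF2b* level in *cmt3b* egg was 19.7 and 18.8 FPKM and in *cmt3a* egg 20.6 and 18.9 FPKM. Both mutants lay below every WT egg library. The log2 fold changes were −0.71 (SE 0.05, adjusted p = 6.83e-14) and −0.56 (SE 0.05, adjusted p = 1.44e-08) in edgeR, both under the fold limit. These comparisons share the WT egg libraries. In meiocyte, *EMF2b* was at 17.1, 15.7 and 14.6 FPKM in WT and at 18.4, 20.7 and 19.7 FPKM in *cmt3b*, without overlap, and edgeR gave a log2 difference of 0.50 (SE 0.06, adjusted p = 2.63e-08). In *cmt3b* zygote it was −0.18 (SE 0.06, adjusted p = 0.01).

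The opposite signs in egg and meiocyte were tested as an interaction. The *cmt3b* effect on *EMF2b* in egg differed from that in meiocyte by −1.23 on the log2 scale (SE 0.08, 95% interval −1.39 to −1.06, adjusted p = 1.44e-15 in edgeR), and *EMF2b* was 1 gene of 5 called there, where 26.3% of all genes were. *EMF2a* followed with −0.91 (SE 0.08, adjusted p = 8.1e-12), and *iEZ1* (0.74, adjusted p = 6.35e-06) and *FIE2* (0.64, adjusted p = 4.15e-08) had differences of the other sign, all under the limit in edgeR. Between zygote and egg, 0 of 5 genes were called by edgeR, where 22.7% of all genes were, and 3 of 5 had an unadjusted p under 0.05. The *cmt3b* effect on *EMF2b* was 0.53 higher in zygote than in egg (SE 0.09, adjusted p = 3e-06 in edgeR), and the difference for *CLF* was −0.01 (95% interval −0.20 to 0.18).

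*EMF2a* made up 30.9% ± 0.462 of the summed EMF2 level in WT egg, 40.6% ± 0.177 in *cmt3b* egg and 46.7% ± 0.434 in *cmt3a* egg, without overlap. In zygote the share was 43.0% ± 1.46 in WT and 39.8% ± 1.67 in *cmt3b*, and in meiocyte 35.7% ± 1.43 and 40.4% ± 1.02. It was 35.2% ± 0.405 in WT microspore, 52.1% ± 2.53 in *cmt3b* sperm and 16.2% in WT sperm.

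From meiocyte to microspore in WT, *iEZ1* went from 4.54, 4.22 and 3.92 FPKM to 14.8, 14.8 and 14.1 FPKM. This was the 1 call among 5 genes, a 4.34-fold rise with a log2 value of 2.12 (edgeR, SE 0.07, adjusted p = 6.15e-22), in a comparison where 62% of all genes were called. *CLF* was at 4.34, 3.79 and 4.16 FPKM in microspore, lower than in all meiocyte libraries, by an edgeR log2 difference of −0.46 (SE 0.09, adjusted p = 1.94e-05). *EMF2a* (0.13) and *EMF2b* (0.16) had log2 fold changes near 0 that were positive with TMM, while their mean FPKM was lower in microspore. Anther wall markers summed to 38500 to 46900 FPKM in microspore, nearly all of it from LOC_Os11g37280, and their part in these differences was not tested.

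From egg to zygote in WT, *CLF* went from 8.10, 7.79 and 8.48 FPKM to 11.2, 11.9 and 11.4 FPKM, and *EMF2b* from 37.9, 35.8 and 37.0 FPKM to 25.7, 24.1 and 26.3 FPKM. Neither overlapped. None of the 5 genes was called by edgeR or DESeq2, where 22.8% of all genes were, and 4 of 5 had an unadjusted p under 0.05. In edgeR the log2 fold changes were 0.69 (SE 0.05, adjusted p = 2.24e-14) for *CLF*, −0.47 (SE 0.08, adjusted p = 1.55e-06) for *iEZ1*, 0.41 (SE 0.04, adjusted p = 2.13e-11) for *EMF2a* and −0.34 (SE 0.04, adjusted p = 7.2e-10) for *EMF2b*. *FIE2* was at 0.09 (95% interval −0.01 to 0.19). The nucellus marker LOC_Os02g07430 went from 296 to 314 FPKM in egg to 467 to 469 FPKM in zygote (edgeR log2 difference 0.81, adjusted p = 3.29e-23), and its part in these differences was not tested. In the *cmt3b* mutant, the zygote and egg values again gave 0 calls of 5 by edgeR and DESeq2, against 22% of all genes, with 4 of 5 at an unadjusted p under 0.05. *CLF* was at 0.67 (SE 0.08) and *iEZ1* at −0.54 (SE 0.12) there.

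Between WT meiocyte and WT egg, 0 of 5 genes were called by edgeR or DESeq2, where 51.5% of all genes were, and 4 of 5 had an unadjusted p under 0.05. The edgeR value for *EMF2b* was −0.84 on the log2 scale (SE 0.05, adjusted p = 2.66e-18), and *iEZ1* was at 0.05 (95% interval −0.11 to 0.22). *CLF* was at 0.18 (SE 0.06, adjusted p = 0.00843 in edgeR), higher in meiocyte, although its mean FPKM was lower there.

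WT sperm lay apart from all other groups in each of the 5 expressed genes, but it is 1 sample and no test was made. The share of all genes in which WT sperm lay apart in this way is not given here. Most genes differed over 2-fold from WT sperm in the comparisons below. Against WT microspore, all 5 genes lay over 2-fold to one side of WT sperm in every library, where 79.5% of all genes did. On the TMM scale, *FIE2* was 3.09-fold and *CLF* 7.12-fold higher in WT sperm, and *EMF2a* was 18.6-fold and *EMF2b* 6.93-fold lower. *iEZ1* was at least 228-fold lower, taking 3 counts in WT sperm as the level of 0 counts. The median log2 ratio of all genes in this comparison was −0.835.

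Against WT egg, all 5 genes again lay over 2-fold to one side, where 82.5% of all genes did. *FIE2* was 4.98-fold and *CLF* 4.53-fold higher in WT sperm, *EMF2a* 33.7-fold and *EMF2b* 14.7-fold lower, and *iEZ1* at least 66.1-fold lower. The median log2 ratio of all genes was −0.587.

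In *cmt3b* sperm, *iEZ1* was at 10.3, 10.3 and 11.3 FPKM against 0 counts in both WT files. *CLF* was at 2.18, 2.73 and 2.79 FPKM against 22.4 and 22.5 FPKM. *EMF2a* was at 8.10, 9.40 and 9.26 FPKM against 0.304 and 0.272 FPKM. For these genes the 3 mutant libraries lay closer to one another than to WT sperm. Over all genes, *cmt3b* sperm held the replicate pairs with the highest chi-square over degrees of freedom. It was 6.73 between replicates 1 and 2 and 6.38 between replicates 1 and 3. *EMF2b* was at 7.57, 9.50 and 7.65 FPKM against 1.46 and 1.52 FPKM, and *FIE2* at 23.4, 25.1 and 26.8 FPKM against 49.2 and 49.3 FPKM.

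On the TMM scale *iEZ1* was at least 182-fold, *EMF2a* 24.1-fold and *EMF2b* 4.47-fold higher in *cmt3b* sperm, and *CLF* was 10.4-fold and *FIE2* 2.34-fold lower. All 5 genes lay over 2-fold to one side of WT sperm, where 68.1% of all genes did, and the median log2 ratio of all genes was 0.05. Of 6 anther wall markers, 4 were at 3 counts or fewer in WT sperm and 2 in *cmt3b* sperm. Their sum was 41.5 to 41.9 FPKM in WT and 60.1 to 71.1 FPKM in *cmt3b* sperm, with LOC_Os11g37280 at 0 and 34.8 FPKM, LOC_Os02g02820 at 0.0123 and 12.4 FPKM and LOC_Os01g18870 at 0.0334 and 9.31 FPKM. LOC_Os07g36460 went the other way, from 41.6 FPKM in WT to 8.68 FPKM, and without it the list summed to 0.151 FPKM in WT and 56.5 FPKM in *cmt3b* sperm. Of the 4 anther wall markers measured, 3 were over 2-fold higher and 1 was lower, with a median log2 ratio of 7.04. All 3 sperm markers were over 1 FPKM in both groups. The part of these markers in the PRC2 values of sperm was not tested.

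Within the mutant, *cmt3b* sperm was tested against *cmt3b* meiocyte. There 3 of 5 genes were called, where 79.1% of all genes were. The log2 fold changes in edgeR were −1.64 (SE 0.10, adjusted p = 2.74e-14) for *CLF*, 1.95 (SE 0.09, adjusted p = 2.46e-17) for *iEZ1* and −1.17 (SE 0.08, adjusted p = 8.32e-13) for *EMF2b*, beside a median of −0.647 over all genes tested. *FIE2* (0.90) and *EMF2a* (−0.49) were under the fold limit.

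A list of 7 further genes taken as Polycomb partners, and a list of 12 MADS-box and KNOX genes, a class known as Polycomb targets in plants, were read from the same fits. No source used here pairs their identifiers with names, so they are given by identifier. All 7 partner genes were tested in each comparison. Over all genes, 18.6% were called in *cmt3b* meiocyte, 22.7% in *cmt3b* egg, 38.1% in *cmt3a* egg and 16.8% in *cmt3b* zygote. These are the background for the called counts of both lists. Called counts were 0 by edgeR and DESeq2 in *cmt3b* meiocyte, where 5 had an unadjusted p under 0.05, and in *cmt3b* zygote, where 6 did. They were 1 lower in *cmt3b* egg (LOC_Os12g34850, log2 fold change −1.09, adjusted p = 2.34e-19 in edgeR), and 1 higher (LOC_Os01g12890, 1.66, adjusted p = 4.46e-11) and 1 lower (LOC_Os02g05840, −1.28, adjusted p = 2.92e-12) in *cmt3a* egg. Median log2 fold changes of the partner list were 0.05 in *cmt3b* meiocyte, −0.16 in *cmt3b* egg, 0.09 in *cmt3a* egg and 0.32 in *cmt3b* zygote, while those of all genes lay between −0.0161 and 0.00878.

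Of the MADS-box and KNOX genes, 8 passed the filter on low counts in the meiocyte comparison, where LOC_Os03g51690 (log2 fold change 2.48, adjusted p = 8.13e-08 in edgeR) and LOC_Os07g03770 (2.95, adjusted p = 2.21e-07) were called higher and LOC_Os12g10540 (−1.98, adjusted p = 5.62e-05) lower. LOC_Os12g10540 was low in these cells, with 14 to 18 counts in WT meiocyte and 4 to 5 in *cmt3b* meiocyte. In *cmt3a* egg, 2 of 8 tested were called higher, LOC_Os03g11614 (2.37, adjusted p = 5.64e-07 in edgeR) and LOC_Os05g03884 (3.85, adjusted p = 4.05e-08), and 0 lower. Of the 7 tested in *cmt3b* egg, edgeR called 0 and DESeq2 1, with 4 at an unadjusted p under 0.05, and of the 6 tested in *cmt3b* zygote both called 0, with all 6 under 0.05. Median log2 fold changes of the list were 0.30 in *cmt3b* meiocyte, 0.24 in *cmt3b* egg, −0.20 in *cmt3a* egg and −0.52 in *cmt3b* zygote. In *cmt3b* sperm, without a test, 2 genes were over 2-fold higher and 2 lower than in WT sperm in either list, of 7 partner genes and 8 MADS-box and KNOX genes measured, where 68.1% of all genes were over 2-fold to one side.

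Markers of other cell types were called in mutant egg and zygote as well, at group means of 9.58 FPKM or less in these cells except for the nucellus marker. In *cmt3b* egg, the meiocyte marker LOC_Os04g37960 was called higher (1.17 on the log2 scale, adjusted p = 7.89e-05 in edgeR) and the sperm marker LOC_Os05g18730 lower (−2.34, adjusted p = 2.32e-13). These were 1 of 7 meiocyte and 1 of 2 sperm markers tested there, where 22.7% of all genes were called. In *cmt3a* egg, the meiocyte marker LOC_Os10g26560 (2.84, adjusted p = 1.08e-11 in edgeR) and the anther wall marker LOC_Os08g03682 (1.45, adjusted p = 6.79e-07) were called higher. Called lower there were the nucellus marker LOC_Os02g07430 (−1.25, adjusted p = 3.73e-12 in edgeR), the meiocyte markers LOC_Os03g58600 (−2.33, adjusted p = 4.45e-07) and LOC_Os12g04980 (−2.01, adjusted p = 2.8e-10), and the anther wall marker LOC_Os01g18870 (adjusted p = 0.000607). The meiocyte list thus had 1 gene of 7 higher and 2 lower in *cmt3a* egg, where 38.1% of all genes were called. Of 3 anther wall markers tested there, 1 was higher and 1 lower. In *cmt3b* zygote, the anther wall markers LOC_Os01g18870 (1.20, adjusted p = 9.89e-05 in edgeR) and LOC_Os08g03682 (1.03, adjusted p = 0.00331) were called higher, and LOC_Os11g37280, at 1.31 FPKM in WT zygote and 0 in the mutant, lower (adjusted p = 1.67e-07). There 4 anther wall markers were tested, and 16.8% of all genes were called. The part of all these markers in the PRC2 values was not tested.

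The expressed PRC2 genes were also set beside 28799 genes with a mean of at least 1 FPKM in at least 1 group, by Pearson's r over the 10 group means of log2(FPKM + 1), as a description. The genes most like *iEZ1* were LOC_Os07g08970 (r = 0.985), LOC_Os10g21810 (0.965) and LOC_Os09g10720 (0.959), and those most like *CLF* were LOC_Os11g03500 (0.973), LOC_Os09g37510 (0.967) and LOC_Os06g47250 (0.951). For *FIE2* they were LOC_Os04g56530 (0.966), LOC_Os12g24250 (0.955) and LOC_Os07g16130 (0.954), each highest in WT sperm. *EMF2a* was followed most closely by LOC_Os03g07420 (0.984), LOC_Os03g03830 (0.981) and LOC_Os01g39680 (0.979), and *EMF2b* by LOC_Os04g59550 (0.987), LOC_Os02g40870 (0.986) and LOC_Os12g40840 (0.986). *EMF2a* and *EMF2b* themselves had r = 0.95, which was 0.772 without WT sperm.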

How the data were processed

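The 27 RNA-seq libraries were used and the 32 bisulfite libraries were not analysed here. Per the study's methods, the authors trimmed reads in fastp, mapped them to MSU7.0 with HISAT2, and obtained gene counts from featureCounts. The deposited raw counts were tested, the deposited FPKM values, which could be recomputed from the counts, gave the levels, and the deposited TPM values were not used. The analysis used edgeR 4.0.16 in R 4.3.3 (TMM, filterByExpr at a minimum count of 10, quasi-likelihood test) and, as an alternative, DESeq2 1.42.0. Only the edgeR fits of *cmt3b* against WT in egg and in meiocyte were run on simulated counts with known changes. The simulation assumed the same spread for all genes and did not cover the other comparisons. Each comparison was fitted alone over all genes that passed the filter. Ratios to WT sperm used log2 CPM with a prior count of 2. Folds against 0 counts took 3 counts in WT sperm as the level. Groups were taken from the labels. The genes and lists were chosen with earlier results of these data known, and the lists were assembled from general knowledge. The text names the 6 genes, *CMT3a* and *CMT3b*, the 3 genes most like each expressed member, neighbours of *FIE1*, *FIE2* and *EMF2a* in identifier order, and list genes called in a mutant, at most 4 per list and comparison. Alternatives were another normalization, DESeq2, no filter, 1 fit of all groups, another prior count, a replicate block and leaving out each replicate. Same-numbered replicates did not deviate together, with correlations of −0.0516 to 0.0597 over 26 pairs. No genome sequence was used.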

Additional observations from a re-analysis of the deposited data

Results flagged for a closer look

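The *cmt3b* effect on *EMF2b* differed between egg and meiocyte by −1.23 on the log2 scale in edgeR's test of the interaction (SE 0.08, adjusted p = 1.44e-15), being below WT in both mutant egg libraries and above WT in the 3 mutant meiocyte libraries.

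In sperm, every *cmt3b* library lay on the opposite side of WT from the direction seen in another cell type, and these differences were not tested because WT sperm is 1 sample. The mean log2 ratio to WT sperm was −3.37 for *CLF*, whose log2 fold change was 0.46 in meiocyte, 0.33 in egg and 0.31 in zygote. For *iEZ1* it was 8.16, a value that depends on the prior count since WT sperm had 0 counts, beside −0.34 in meiocyte, while egg (0.41) and zygote (0.36) had the same sign as sperm. *FIE2* was at −1.23 in sperm, beside 0.50 in egg and 0.72 in zygote, with the same sign as sperm in meiocyte (−0.15). *EMF2a* was at 4.59, beside −0.10 in egg and −0.37 in zygote, with the same sign as sperm in meiocyte (0.79). *EMF2b* was at 2.16, beside −0.71 in egg and −0.18 in zygote, with the same sign as sperm in meiocyte (0.50). The meiocyte, egg and zygote values are edgeR log2 fold changes, and all *cmt3b* sperm ratios share the single WT sperm sample.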

How the results depend on the processing

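The number of PRC2 genes called was unchanged in each of the 10 tested comparisons under DESeq2 size factors, the DESeq2 Wald test, no filter on low counts, 1 fit of all groups and leaving out each replicate, and in both interactions under those run there. With the replicate number as a block it was 1 in *cmt3a* egg against WT egg, 2 in *cmt3a* against *cmt3b* egg and 3 in *cmt3b* sperm against *cmt3b* meiocyte, as without the replicate block, and no other call changed. The numbers pair no samples by the check of deviations.

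The median log2 ratio of the 5 genes moved with DESeq2 size factors to 1.94 in *cmt3b* against WT sperm, to −2.60 in WT sperm against microspore and to −3.60 against egg. With 1 fit of all groups it was −2.95 against microspore and −3.76 against egg. Leaving out 1 replicate gave 2.05 to 2.23, −2.84 to −2.77 and −4.01 to −3.86 in these comparisons. DESeq2 size factors moved the median of all genes in *cmt3b* against WT sperm from 0.05 to −0.178.

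Only values near 0 changed sign. Without the filter, the log2 fold change of *EMF2a* from meiocyte to microspore was −0.0160. That of *iEZ1* between WT meiocyte and egg was −0.0130 in 1 fit of all groups and −0.0184 to 0.111 with 1 replicate left out. The difference of the *cmt3b* effect on *CLF* between zygote and egg was 0.0264 without the filter and −0.0645 to 0.0356 with 1 replicate left out, and that on *iEZ1* was −0.140 to 0.0454.

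With TMM library sizes in place of total counts, 39 of 60 group levels in FPKM moved by more than 1 SD or, in WT sperm and other groups without an SD above 0, by any amount, and the group span became 14.2-fold for *EMF2b* (24.8-fold by FPKM) and 42.8-fold for *EMF2a* (66.5-fold). The order of groups changed too, with another rank for 7 groups in *EMF2a*, 6 in *FIE2* and 4 each in *CLF*, *iEZ1* and *EMF2b*.

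A gene at 0 counts is limited to 3 counts per library, and WT sperm has no estimate of spread. Both mutant egg groups have 2 libraries each.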
